A study of Mus musculus with 25 samples.

Results

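The olfactory receptor genes described here are the numbered Olfr genes with an estimated count of at least 10 in 1 or more of 5 conditions of mouse sperm RNA. They were chosen by the largest of their 5 counts, so their levels are a description of what the choice used and no test was made on them. Of 1102 numbered Olfr genes in the deposited table, 18 passed, which is 1.63%. Of all 24287 genes with a usable estimate in every condition, 17701 passed the same limit, which is 72.9%.

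The study asked how prenatal exposure to di(2-ethylhexyl)phthalate (DEHP), a plasticiser, acts on sperm of mouse strains that differ in susceptibility. Sperm was collected from the cauda epididymis of males aged 14 weeks per the labels, and its RNA was sequenced by a protocol that reads long and short RNA together. C57.CTL.F1 and C57.D300.F1 are first-generation C57BL/6J males whose mothers were given corn oil vehicle or DEHP at 300 mg/kg/day from embryonic day 9 to 19. FVB.CTL.F1 and FVB.D300.F1 are the FVB/N males of the same design, and C57.D300.F2 are C57BL/6J males of the second generation, sired by exposed first-generation males with unexposed females. No vehicle group of the second generation was analysed here. Each condition had 5 libraries, but the table gives 1 pooled value per gene and condition, so differences between conditions have no replicate check. The 10 libraries of the first-generation C57BL/6J males are marked in the labels as reused from earlier work and the other 15 were newly made, so a difference between those 2 conditions and the remaining 3 cannot be told apart from a difference between library sets. The table totals were 8602900 counts for C57.CTL.F1, 7748900 for C57.D300.F1, 6921690 for C57.D300.F2, 7568130 for FVB.CTL.F1 and 8278490 for FVB.D300.F1. Counts are estimated fragments, scaled between libraries by the authors' software and not divided by gene length, and the error given after ± is the SD of the count under that software's model, not an SD between libraries. The limit of detection was set at 3 counts.

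Olfactory receptors are G protein-coupled receptors encoded by the largest gene family of the mouse genome, and each sensory neuron of the nose expresses a single receptor gene. In that neuron the receptor acts through the G protein subunit encoded by Gnal, the adenylyl cyclase encoded by Adcy3 and a cyclic nucleotide-gated channel with subunits encoded by Cnga2, Cnga4 and Cngb1. Some receptors are also expressed outside the nose, and in sperm Olfr16 (MOR23) is known for a role in chemotaxis.

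Most of the family was at the limit of detection. The largest of the 5 counts was 3 or fewer for 1029 Olfr genes, of which 41 were listed at 0 in every condition, and lay between 3 and 10 for another 55. The median of the largest count was 0.798 over all Olfr genes and 79.0 over all genes. Among the members, 11 stayed under 25 counts, 4 reached 25 to 100 counts and 3 exceeded 200, with no member between. Just inside the limit were Olfr986 with 10.9 counts, Olfr1445 with 10.6 and Olfr544 with 10.4, all in FVB.D300.F1. Just outside were Olfr920 with 9.71 counts in C57.D300.F2, and Olfr885 and Olfr56 with 8.08 each in FVB.D300.F1.

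**Figure D1:**
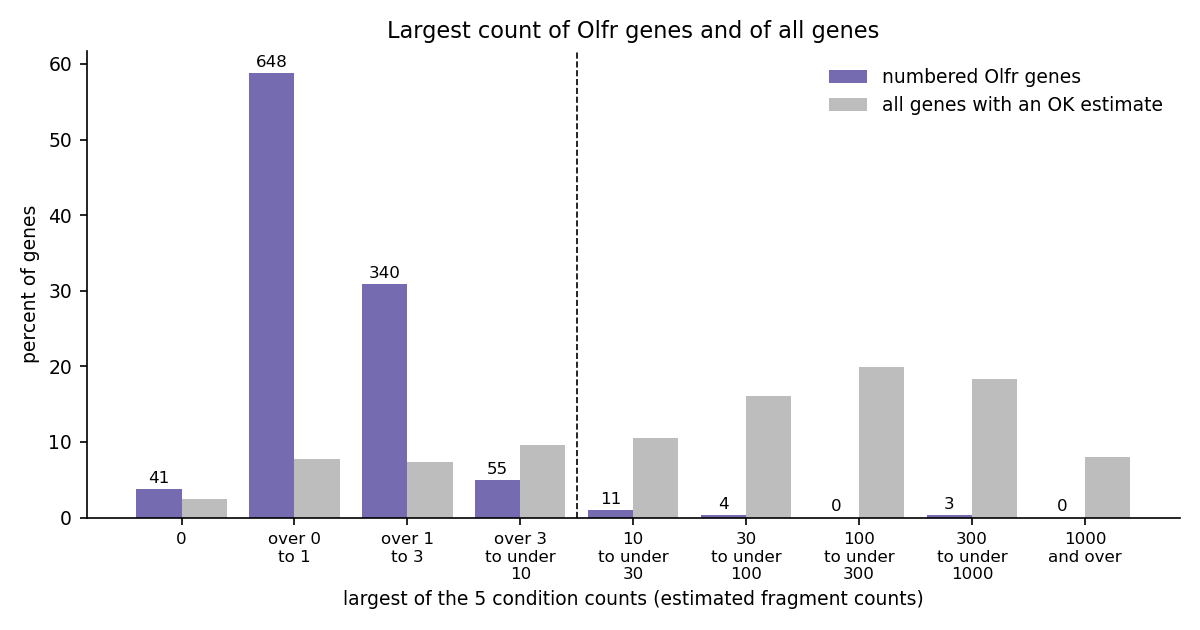
Percent of genes (vertical axis) by the largest of their 5 condition counts (horizontal axis), for the numbered Olfr genes and for all genes with a usable estimate; the numbers above the bars are counts of Olfr genes and the dashed line is the limit of 10 counts. The 18 members lie to the right of the line, and 648 Olfr genes had a largest count over 0 and up to 1.

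The number of Olfr genes with at least 10 counts differed by condition. It was 8 for C57.CTL.F1, 9 for C57.D300.F1, 13 for C57.D300.F2, 12 for FVB.CTL.F1 and 16 for FVB.D300.F1. Over all genes the share with at least 10 counts was nearly level, at 67.7%, 68.3%, 68.3%, 65.3% and 66.8% in the same order. All genes had a median largest count of 79.0, whereas many members lay near 10, so these genes are not of like abundance. Only 6 members had at least 10 counts in every condition, namely Olfr613, Olfr1033, Olfr851, Olfr701, Olfr821 and Olfr543, and 7 had 3 counts or fewer in at least 1 condition.

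The coding sequences of the members are 924 to 1011 bases long in GENCODE M21 (GRCm38), so that counts per kb of coding sequence give nearly the same order of genes as the counts. At its highest condition Olfr613 had 552 counts per kb, Olfr1033 407 and Olfr851 403, followed by Olfr701 with 103, Olfr821 with 85.7 and Olfr543 with 66.8. The other 12 members had 48.9 counts per kb or fewer. The exons together are 1001 to 7123 bases long, and per kb of exon the values were 101 for Olfr613, 89.1 for Olfr1033, 53.1 for Olfr851, 46.4 for Olfr543, 40.1 for Olfr821 and 23.3 for Olfr701, so the order of the latter 3 depends on the length used.

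Olfr613 was the most abundant member in every condition. Its counts were 395 ± 92.1 for C57.CTL.F1, 364 ± 85.0 for C57.D300.F1, 402 ± 94.1 for C57.D300.F2, 482 ± 111 for FVB.CTL.F1 and 527 ± 124 for FVB.D300.F1. Adjacent values in this order differed by less than 1 model SD, and the largest log2 ratio of the 7 contrasts made here was 0.53 (FVB.D300.F1 against C57.D300.F1). Olfr1033 had 254 ± 61.2, 214 ± 51, 227 ± 54.8, 380 ± 92.2 and 271 ± 63.6 counts in the same order of conditions. It was highest in FVB.CTL.F1 and lay between 214 and 271 counts elsewhere. Together these genes made 77.3% of the members' summed counts for C57.CTL.F1 and 51.3% for FVB.D300.F1.

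Olfr851 had the widest range among the 6 members with at least 10 counts in every condition. Its counts were 39.6 ± 13.3 for C57.CTL.F1, 95.8 ± 29.2 for C57.D300.F1, 218 ± 53.2 for C57.D300.F2, 236 ± 56.4 for FVB.CTL.F1 and 378 ± 87.9 for FVB.D300.F1. The reused libraries held the 2 lowest values, and within each strain the exposed first-generation males were above their vehicle group. Olfr821 had 13.5 ± 5.92, 39.5 ± 13.3, 79.9 ± 22.8, 47.0 ± 14.7 and 72.9 ± 20.9 counts in the same order. It was lowest in C57.CTL.F1 and highest in C57.D300.F2. Olfr701 had 54.8 ± 16.7, 45.4 ± 14.6, 92.4 ± 24.9, 80.2 ± 22.3 and 97.6 ± 26.8 counts, with the 3 newly made conditions above the reused ones.

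Counts of Olfr543 were higher in the FVB/N conditions. Reads of both strains were mapped to mm10, the C57BL/6J reference. Whether sequence variants of FVB/N alter the counts in any strain comparison here was not tested. Olfr543 had 18.3 ± 7.42 counts for C57.CTL.F1, 13 ± 6 for C57.D300.F1 and 17.4 ± 7.22 for C57.D300.F2, against 57.4 ± 17.9 for FVB.CTL.F1 and 67.6 ± 19.6 for FVB.D300.F1. The FVB/N values were thus above all 3 C57BL/6J values, including that of the newly made C57.D300.F2. Olfr1445 had the same order at low counts, with 0.746 or fewer in the C57BL/6J conditions, 7.86 ± 4.46 for FVB.CTL.F1 and 10.6 ± 5.10 for FVB.D300.F1. Olfr544, a receptor known to respond to azelaic acid, had 0.113, 0.279, 3.06, 5.80 and 10.4 counts from C57.CTL.F1 to FVB.D300.F1, and Olfr986 had 0.561, 0.157, 1.23, 4.24 and 10.9. Both were highest in FVB.D300.F1 and at 0.561 counts or fewer in the reused libraries. Olfr1445, Olfr544 and Olfr986 passed the limit of 10 counts only in FVB.D300.F1, so their being highest there follows from the choice of members.

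Olfr711 and Olfr733 had their highest counts in a C57BL/6J condition. Olfr711 had 9.64 ± 5.00 counts for C57.CTL.F1, 19.9 ± 7.95 for C57.D300.F1, 46.2 ± 15.7 for C57.D300.F2, 3.11 ± 2.45 for FVB.CTL.F1 and 9.99 ± 4.8 for FVB.D300.F1. It was highest in C57.D300.F2 and lowest in FVB.CTL.F1. Olfr733 had 19.99 ± 8.32, 15.6 ± 6.63, 8.53 ± 4.30, 2.4 ± 2.24 and 1.43 ± 1.73 counts in the same order, and was the only member whose highest count was in C57.CTL.F1. Its neighbour Olfr732, not a member, had 7.16, 2.73, 1.63, 0.307 and 0 counts, also highest in C57.CTL.F1. Olfr732 shares part of its sequence with Olfr733, so their counts may not be independent. Olfr711 and Olfr733 passed the limit of 10 counts only in C57BL/6J conditions, so their being highest there follows from the choice of members.

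The remaining members had at most 22.5 counts. Olfr536 had 3.6 ± 2.5, 8.26 ± 4.14, 22.5 ± 8.43, 16.5 ± 6.76 and 14.5 ± 6.33 counts from C57.CTL.F1 to FVB.D300.F1. Olfr702 had 5.81, 5.51, 15.4, 14.9 and 21.4 counts, Olfr97 had 1.80, 3.30, 13.9, 8.75 and 13.3, and Olfr376 had 0.132, 1.74, 11.1, 11.1 and 12.1. All 4 were lower in the reused libraries than in any newly made condition. Olfr287 stayed between 8.94 and 18.6 counts and Olfr1443 between 8.06 and 17.7, both highest in C57.D300.F2, while Olfr1342 was lowest in C57.CTL.F1 with 2.39 and highest in FVB.CTL.F1 with 11.8.

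**Figure D2:**
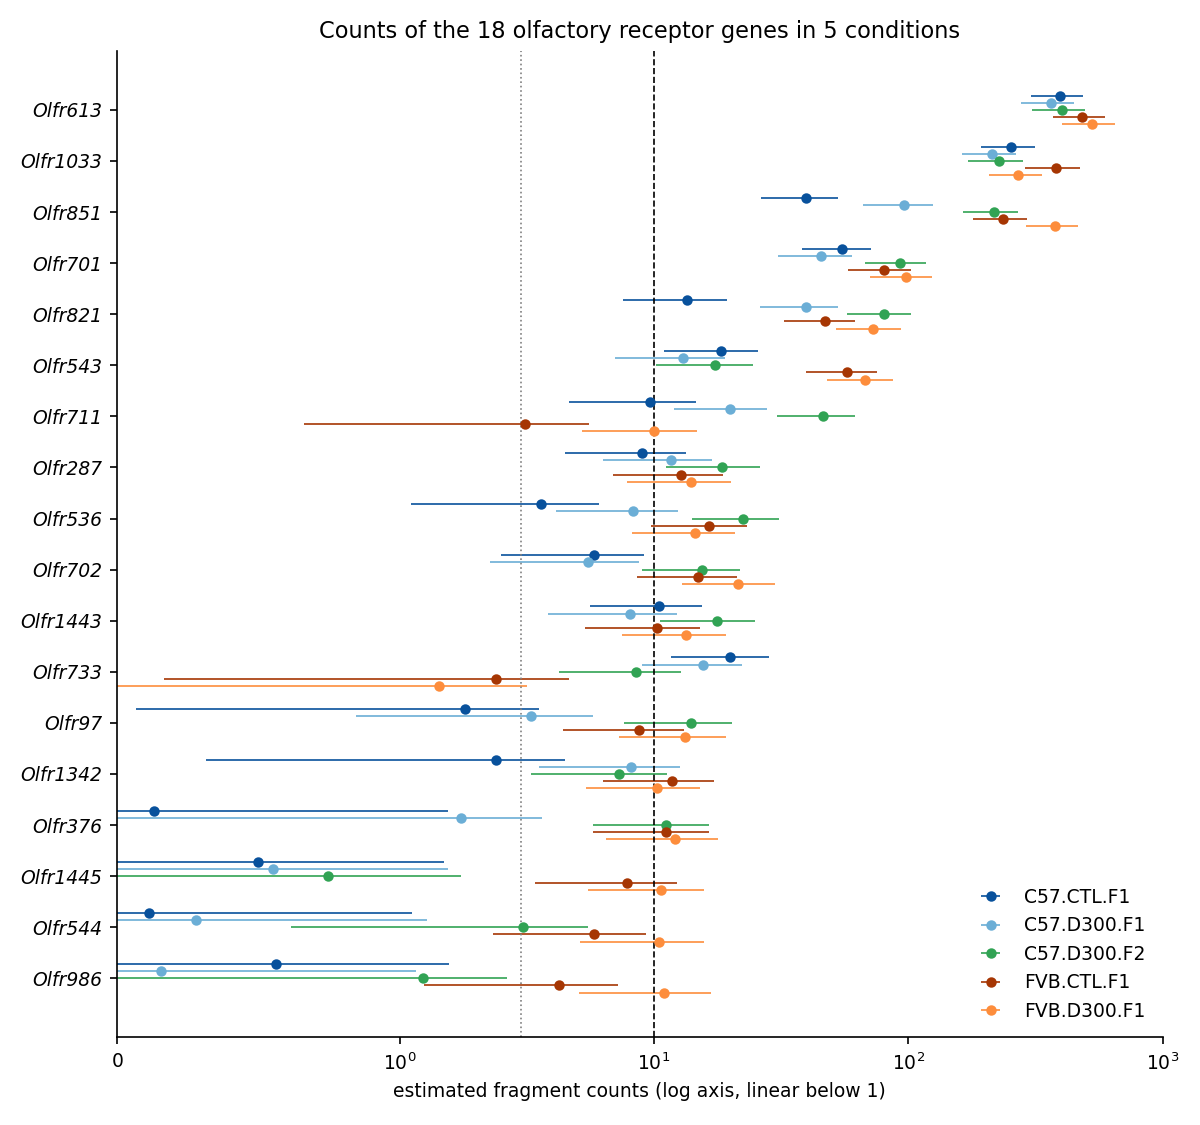
Estimated fragment counts (horizontal log axis, linear below 1) of the 18 members (rows, by mean count) in 5 conditions (colours); bars show 1 SD under the authors' model, truncated at 0, the dashed line is the limit of 10 counts and the dotted line the limit of detection at 3. Olfr613 lies between 364 and 527 counts, while Olfr851 spreads from 39.6 to 378.

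The members are scattered over the genome. They lie on 10 chromosomes and in 13 of the 54 clusters formed by Olfr genes less than 500 kb apart, among the 1095 Olfr genes with a GENCODE position. Chromosome 7 holds 7 of the 18 members (38.9%) and 21.2% of the other Olfr genes. Olfr543 (chr7:102476579-102481679, minus strand) and Olfr544 (chr7:102482031-102488313, minus strand) are adjacent, 352 bases apart, and Olfr613 (chr7:103548074-103555506, plus strand) lies in the same cluster of 124 genes. Olfr701 (chr7:106814129-106821472, plus strand) and Olfr702 (chr7:106823489-106833893, minus strand) are also adjacent, 2017 bases apart and on opposite strands. Olfr711 (chr7:106969694-106975453, minus strand) lies in their cluster of 23 genes, and Olfr536 (chr7:140500849-140507396, minus strand) in another. Outside chromosome 7, Olfr1033 lies at chr2:86020633-86045171 on the plus strand in a cluster of 218 genes, Olfr851 at chr9:19493295-19502815 on the plus strand, Olfr821 at chr10:130030348-130035071 on the plus strand and Olfr733 at chr14:50295891-50301522 on the minus strand.

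Most neighbouring receptors were not detected, as was the case over the whole family. The members had 33 directly neighbouring Olfr genes, of which 4 were members themselves. Of the other 29, 25 had 3 counts or fewer in every condition, their median largest count was 1.21, and the highest was 8.04 in Olfr703, which lies next to Olfr702. Among all 1084 Olfr genes that did not pass, 1029 had 3 counts or fewer in every condition. Beside Olfr613, Olfr612 had at most 0.153 counts and Olfr615, 573 bases away, at most 1.14. Beside Olfr1033, Olfr1032 had at most 0.723 counts and Olfr1034 at most 2.51.

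Other genes near the members were also examined. The nearest gene outside the family on the same strand with at least 10 counts was at a median distance of 169 kb from a member and 320 kb from another Olfr gene. It was within 20 kb for 2 members, namely Olfr986, which lies 2182 bases from Zfp202 (143 counts at most), and Olfr1443, which lies 11935 bases from Keg1 (1014 counts at most), and for 3.53% of the other Olfr genes. For Olfr613, Olfr1033 and Olfr851 it was 663287, 880710 and 119287 bases away. Only Olfr287, with Gm44579, and Olfr1443, with Gm49772, overlap another annotated gene on the same strand. Whether transcripts that run on from neighbouring genes add to any count was not tested.

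Receptor genes can share reads with near-identical relatives. The share of 30-base words of the coding sequence that also occur in transcripts of another gene had a median of 10.4% over the members and 22.6% over the other Olfr genes. It was 0% for Olfr613, Olfr543, Olfr702 and Olfr986, 0.110% for Olfr851, 0.664% for Olfr821 and 0.873% for Olfr711. The rest of the exons was not compared, and the study also kept reads shorter than 30 bases. A low share thus does not exclude shared reads. It was 44.4% for Olfr1033 (most with Olfr1032), 31.5% for Olfr733 (with Olfr732), 47.8% for Olfr376 (with Gm49340), 38.3% for Olfr536 (with Olfr533), 31% for Olfr1445 (with Olfr1448), 11.3% for Olfr701 (with Olfr706), 51.1% for Olfr544 (with Olfr545), 53.1% for Olfr97 (with Olfr98) and 79.7% for Olfr287 (with the overlapping Gm44579), so the counts of these 9 genes, and the contrasts that name them, are uncertain where reads could be split. The part of the model variance that the table assigns to uncertain fragment assignment was 0 for every gene with a usable estimate. It therefore does not tell genes with shared sequence from the others.

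RefSeq windows of 250 bases before to 50 after the start (GRCm38.p6) were found for 16 of the 18 members, not for Olfr1033 or Olfr376. In 9 of the 16, those of Olfr613, Olfr851, Olfr821 and Olfr543 among them, the RefSeq start lies 2192 bases or more inside the GENCODE gene, so these windows are internal sequence and were not read as promoters. In the other 7 it lies within 100 bases of the gene's 5' end. Of these are shown the window of the most abundant member (Olfr701), that of the member highest in C57.D300.F2 and lowest in FVB.CTL.F1 (Olfr711) and that with 2 matches to CCCNNGGG (Olfr536). The capitals mark matches to TATAAA or to CCCNNGGG on either strand. The positions are chr7:106813879-106814178, plus strand for Olfr701, chr7:106975402-106975701, minus strand for Olfr711 and chr7:140507269-140507568, minus strand for Olfr536.
Olfr701: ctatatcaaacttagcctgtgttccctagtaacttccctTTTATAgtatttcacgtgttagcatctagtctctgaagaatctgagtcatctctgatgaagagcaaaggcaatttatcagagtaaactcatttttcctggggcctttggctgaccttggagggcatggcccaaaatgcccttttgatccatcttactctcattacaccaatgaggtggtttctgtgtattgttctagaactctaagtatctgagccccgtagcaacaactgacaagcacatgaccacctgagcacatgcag
Olfr711: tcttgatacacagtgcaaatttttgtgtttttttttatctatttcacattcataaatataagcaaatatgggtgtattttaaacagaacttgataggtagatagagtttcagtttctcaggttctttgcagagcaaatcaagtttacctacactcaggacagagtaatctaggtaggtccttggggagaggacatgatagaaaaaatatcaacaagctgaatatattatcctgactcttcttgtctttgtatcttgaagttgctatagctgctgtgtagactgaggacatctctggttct
Olfr536: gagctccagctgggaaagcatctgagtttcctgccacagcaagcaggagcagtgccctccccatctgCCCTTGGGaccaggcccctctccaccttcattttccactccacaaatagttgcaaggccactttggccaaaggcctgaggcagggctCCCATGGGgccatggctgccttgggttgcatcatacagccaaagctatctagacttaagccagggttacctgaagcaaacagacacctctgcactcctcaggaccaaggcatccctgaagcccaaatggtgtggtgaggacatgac
The letters CCCNNGGG, which resemble the core bound by EBF factors in olfactory neurons, were in 3 of the 7 windows (Olfr1443, Olfr287 and Olfr536), in 10% of the 140 windows of other Olfr genes whose start is as near to the 5' end and in 13.7% of all 32851 windows. TAATTA, the core of many homeodomain sites, was in 0 of the 7, against 22.1% and 5.29%, and TATAAA in 1 (Olfr701), against 36.4% and 13.6%. The median GC content was 43.3%, against 35.8% and 52.7%. The windows of all genes were not sorted by the place of their start, and 7 windows are few. A match describes the letters only.

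The summed counts of the members were 839 for C57.CTL.F1, 855 for C57.D300.F1, 1203 for C57.D300.F2, 1392 for FVB.CTL.F1 and 1556 for FVB.D300.F1. Scaled to the condition's total over genes with a usable estimate, in CPM, they were 100, 110, 176, 188 and 199. Without Olfr613 and Olfr1033 the sums were 190, 277, 574, 530 and 759. Olfr851 alone made 4.72% of the members' sum for C57.CTL.F1 and 24.3% for FVB.D300.F1. The 1084 Olfr genes that did not pass summed to 313, 387, 770, 520 and 644 counts, with the highest value in C57.D300.F2.

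**Figure D3:**
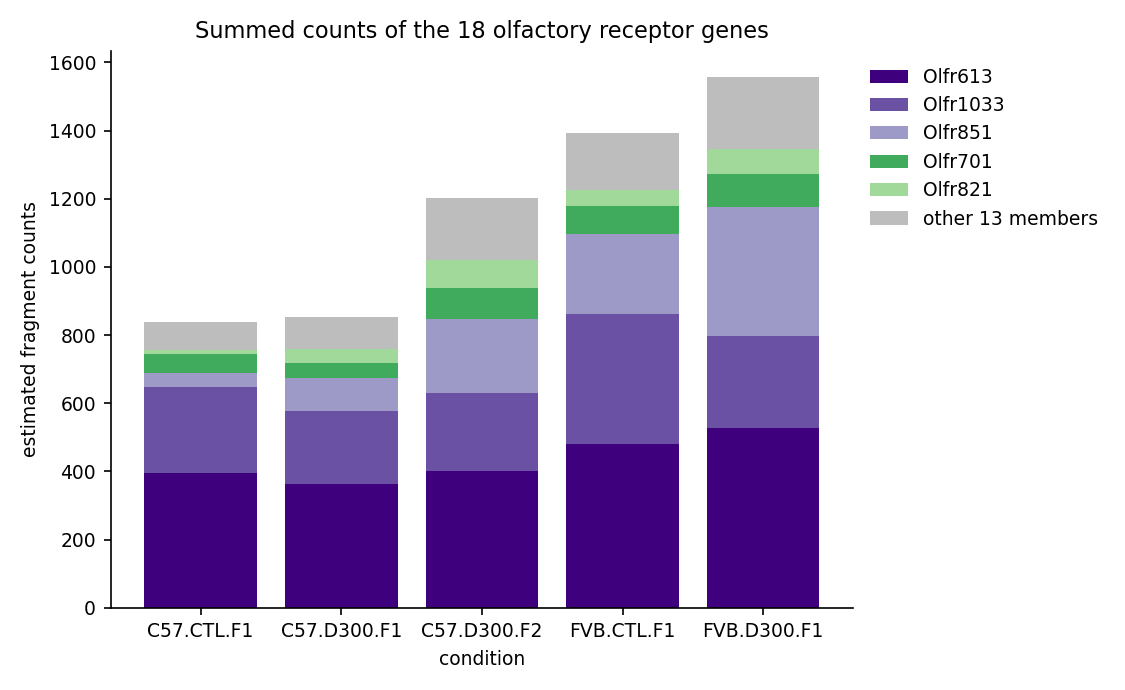
Summed estimated fragment counts (vertical axis) of the 18 members in each condition (horizontal axis), split into the 5 most abundant members and the other 13. The sum goes from 839 for C57.CTL.F1 to 1556 for FVB.D300.F1, and the part of Olfr613 changes less than that of Olfr851.

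The first comparison asked what prenatal DEHP does within each strain. In C57BL/6J (C57.D300.F1 against C57.CTL.F1) the median log2 ratio of the members, with 1 added to each count, was 0.12, against -0.01 over all 17701 genes. None of the 18 members was higher or lower by at least 2 log2 units, while 0.0395% of all genes were higher and 0.243% lower. By at least 1 log2 unit, 5 members were higher (Olfr821, Olfr376, Olfr1342, Olfr851 and Olfr536), against 1.33% of all genes, and 0 were lower, against 1.17%. Olfr376, however, was under the limit of detection in both conditions, so its ratio is not a detected change. The largest log2 ratios among genes of at least 20 counts were 1.48 for Olfr821 (2.93-fold higher) and 1.25 for Olfr851 (2.42-fold higher). Neither difference exceeded 2 model SDs, and 0 of the 18 members did so, against 0.249% of all genes. Among the members of at least 20 counts in this contrast the lowest ratios were -0.27 for Olfr701 and -0.25 for Olfr1033.

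In FVB/N (FVB.D300.F1 against FVB.CTL.F1) the median log2 ratio was 0.31, against 0.01 over all genes, and 14 members were higher and 4 lower by any amount, while 51.1% of all genes and 61.0% of those under 100 counts were higher. None was higher or lower by at least 2 log2 units, against 0.621% and 0.0339% of all genes. By at least 1 log2 unit 2 were higher, Olfr711 (log2 ratio 1.42) and Olfr986 (1.18), against 2.38% of all genes, and 0 were lower, against 0.83%. Among genes of at least 20 counts the largest ratios were 0.68 for Olfr851 and 0.62 for Olfr821, and the lowest was -0.49 for Olfr1033. No member differed by more than 2 model SDs, against 0.141% of all genes. Olfr851, Olfr821 and Olfr711 had log2 ratios of 1.25, 1.48 and 0.98 in C57BL/6J and 0.68, 0.62 and 1.42 in FVB/N. No share of all genes was set beside these, so agreement between the strains was not judged. The ratios in FVB/N minus those in C57BL/6J were -0.57, -0.86 and 0.44, and this difference was not tested.

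The second generation of the exposed lineage was compared with both first-generation groups, which share the reused libraries. Against C57.D300.F1 the median log2 ratio of the members was 1.00, against -0.04 over all genes, with 16 higher and 2 lower by any amount, while 46.4% of all genes were higher. By at least 2 log2 units 1 was higher, Olfr376 (at least 3.71-fold, from 1.74 to 11.1 counts, and not past 2 with counts of 3 or fewer set to 3), against 0.356% of all genes, and 0 were lower, against 3.19%. Among genes of at least 20 counts the largest ratios were 1.34 for Olfr536, 1.18 for Olfr851 and 1.17 for Olfr711, and the lowest were 0.08 for Olfr1033 and 0.14 for Olfr613. Olfr851 alone differed by more than 2 model SDs, against 4.46% of all genes.

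Against C57.CTL.F1 the median log2 ratio of the second generation was 1.12, and all genes had a median of -0.03. By at least 2 log2 units 6 members were higher, against 0.616% of all genes, and 0 were lower, against 3.49%. Olfr821 was 5.94-fold higher (log2 ratio 2.48), Olfr851 5.50-fold (2.43), Olfr536 6.24-fold (2.35) and Olfr711 4.79-fold (2.15). Olfr97 was at least 4.64-fold higher and Olfr376 at least 3.71-fold, since both were under 3 counts in C57.CTL.F1, and with counts of 3 or fewer set to 3 the other 4 were left. With a pseudocount of 10, 1 member was higher and the members' median was 0.54. Differences of more than 2 model SDs were seen for Olfr536, Olfr711, Olfr821 and Olfr851, which is 4 of 18 members, against 5.64% of all genes. The log2 ratios of Olfr613 and Olfr1033 were 0.03 and -0.16. The contrast joins generation, exposure and library set, which cannot be told apart.

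The strains were compared in each treatment. For vehicle (FVB.CTL.F1 against C57.CTL.F1) the median log2 ratio of the members was 1.66, and that of all genes -0.03. By at least 2 log2 units 4 members were higher, against 1.49% of all genes, and 1 was lower, against 8.64%. Olfr851 was 5.96-fold higher in FVB.CTL.F1 (log2 ratio 2.55), and Olfr376, Olfr1445 and Olfr544 were at least 3.71-fold, 2.62-fold and 1.93-fold higher against counts under 3. With counts of 3 or fewer set to 3, Olfr851 was the only one of the 4 left and the members' median was 0.96, and with a pseudocount of 10 it was 0.65. Olfr733 was at least 6.66-fold lower. Among the other members of at least 20 counts Olfr821 and Olfr543 had the largest ratios, 1.73 and 1.60, and both, with Olfr851 and Olfr733, differed by more than 2 model SDs, against 12.9% of all genes.

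For DEHP (FVB.D300.F1 against C57.D300.F1) the median log2 ratio of the members was 0.98, and that of all genes -0.07. By at least 2 log2 units 5 members were higher, against 2.6% of all genes, and 1, Olfr733, was lower (at least 5.20-fold), against 7.57%. Olfr543 was 5.18-fold higher (log2 ratio 2.29), and Olfr1445, Olfr544, Olfr376 and Olfr986 were at least 3.54-fold, 3.47-fold, 4.04-fold and 3.64-fold higher. With counts of 3 or fewer set to 3, only Olfr543 was left of the 5. With a pseudocount of 10, 0 members were higher and 0 lower by at least 2 log2 units. Olfr851 was 3.95-fold higher (1.97) and Olfr702 3.88-fold (1.78). Olfr851, Olfr543 and Olfr733 differed by more than 2 model SDs, against 15.5% of all genes. In both strain contrasts the C57BL/6J group came from the reused libraries.

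Among newly made libraries the strain contrast made here was FVB.CTL.F1 against C57.D300.F2, which also differ in exposure and generation; FVB.D300.F1, likewise newly made, was not contrasted with C57.D300.F2. The median log2 ratio of the members there was -0.02, as over all genes, with 9 higher and 9 lower by any amount, while 48.7% of all genes and 37.8% of those under 100 counts were higher. By at least 2 log2 units 1 member was higher, Olfr1445 (at least 2.62-fold, and not past 2 with counts of 3 or fewer set to 3), against 0.706% of all genes, and 1 was lower, Olfr711 (14.8-fold, log2 ratio -3.52), against 2.51%. Olfr543 was 3.31-fold higher in FVB.CTL.F1 (1.67), and Olfr821 had a ratio of -0.75. Olfr711 and Olfr543 differed by more than 2 model SDs, against 5.69% of all genes. Olfr851, with 236 against 218 counts, did not show here the difference between strains that it had against the reused libraries. A member that passed the limit only in the condition where it was high had to differ from the others, so the counts of members past a threshold describe the choice of members as well as the conditions. Among the 6463 genes of all kinds that passed but stayed under 100 counts, 2.37% were higher by at least 2 log2 units between the vehicle groups, FVB.CTL.F1 over C57.CTL.F1, and 8.79% were lower.

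**Figure D4:**
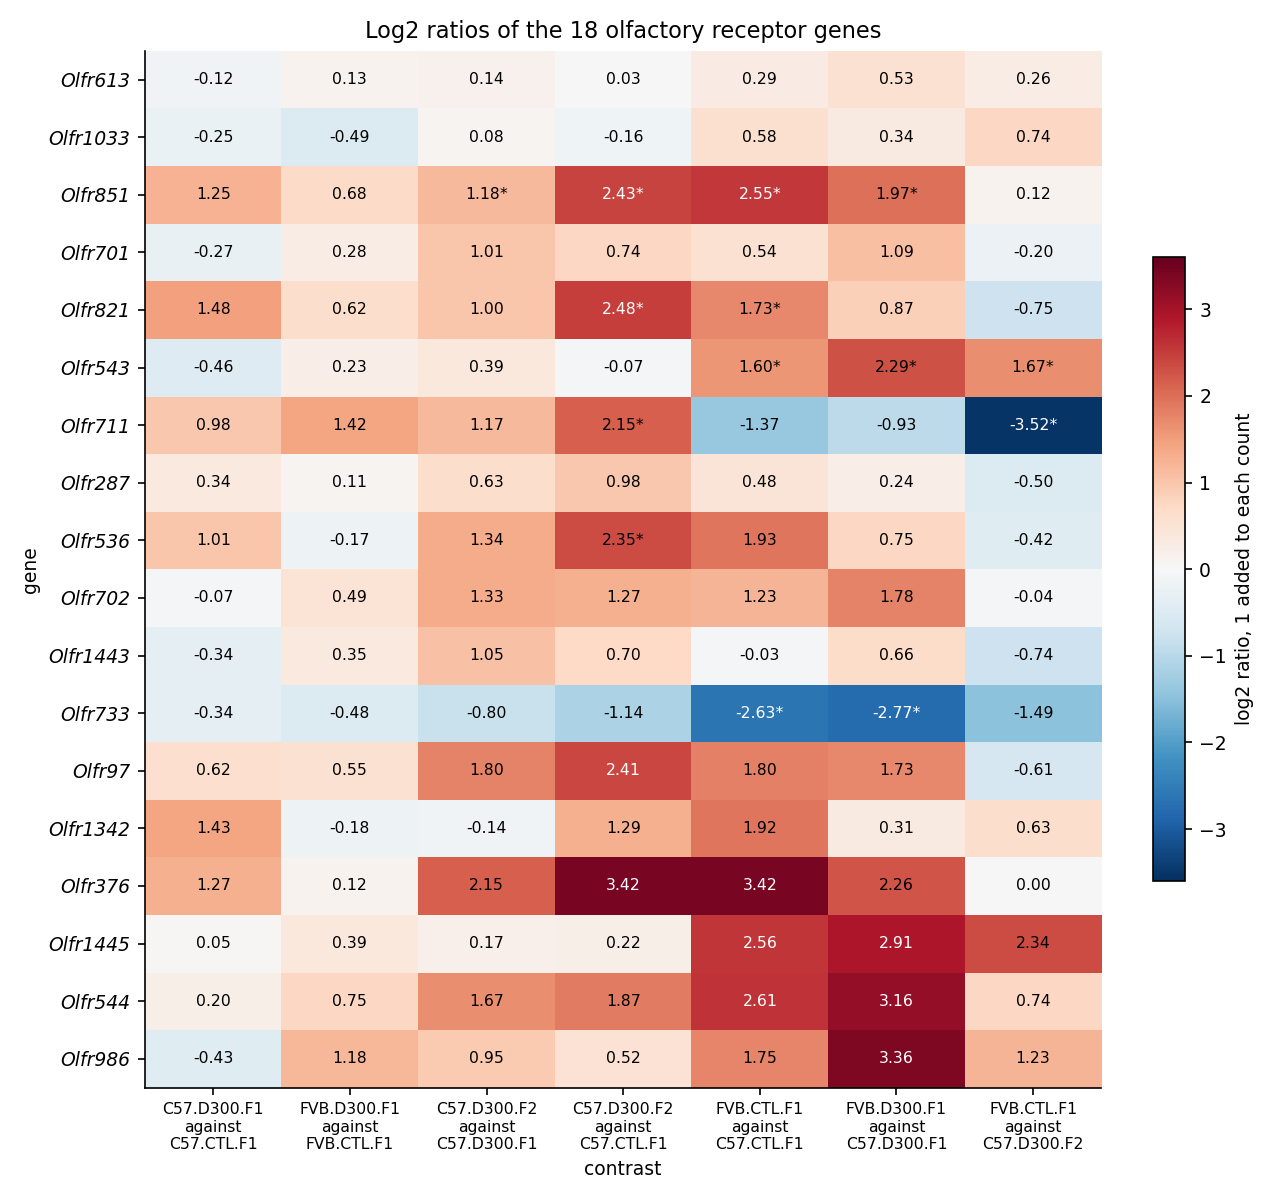
Log2 ratios (colour and printed value, 1 added to each count) of the 18 members (rows) in the 7 contrasts (columns); red is higher in the first-named condition, and an asterisk marks a difference over 2 model SDs. The exposure contrasts within a strain, in the leftmost columns, hold no asterisk, and Olfr851 has one in each contrast of a newly made with a reused condition.

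The RNA held transcripts of several tissues, and their shares differed between the same conditions. All 16 markers of testicular germ cells and sperm had over 10 counts in the C57BL/6J conditions. Their sums in CPM were 11858 for C57.CTL.F1, 10798 for C57.D300.F1, 5027 for C57.D300.F2, 1311 for FVB.CTL.F1 and 1453 for FVB.D300.F1, and Smcp or Odf1 was the most abundant. The protamine gene Prm2 had 20903, 12610, 6651, 1584 and 2019 counts. In FVB.CTL.F1 14 of the 16 had at least 10 counts and in FVB.D300.F1 15, with Catsper1 at 2.84 and 4.29 counts. The markers' sums were lower in the 3 newly made conditions than in the reused ones, and the members' sums in CPM were higher there. Within FVB/N, however, both sums were higher in the exposed than in the vehicle group. In bulk RNA, fewer cells of a type and less RNA per cell cannot be told apart. Olfr733, alone among the members, had the same order of C57BL/6J conditions over FVB/N conditions as the sum of these markers, an order that Hook1 among them did not have.

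The other lists gave different orders. Sums in CPM of the 11 epididymal markers with a usable estimate of 12 were 7978, 8777, 12937, 16734 and 23807 from C57.CTL.F1 to FVB.D300.F1, led by Cuzd1, in the same order of conditions as the members' sum. The sum over all Olfr genes had another order, highest in C57.D300.F2 with 289 CPM. The order of the epididymal sum was also not shared by all of that list. In C57.CTL.F1 Cuzd1 (42582 ± 41153 counts) and Adam7 (23918 ± 16066) made most of the sum. Gpx5 had 202, 199, 162 and 71.4 counts and Cst8 60.1, 56.3, 24.6 and 3.87 over the first 4 conditions, and the median log2 ratio of the list was -0.11 for C57.D300.F1 and 0.06 for C57.D300.F2, each over C57.CTL.F1. In FVB.D300.F1 Gpx5 had 24121 ± 80054 counts and Lcn5 6686 ± 9206, so that the model's error exceeded these counts. The list's median log2 ratio was 6.75 there against FVB.CTL.F1, with 9 of the 11 genes higher by at least 2 log2 units, and some had an SD under the count, such as Rnase10 (25.3 ± 9.40 to 766 ± 470). Epididymal markers were thus highest in the condition with the highest members' sum, while that sum went only from 1392 to 1556 between the FVB/N groups. The 9 seminal vesicle markers, led by Svs4 in C57.CTL.F1, summed to 28736 CPM there and to 89.8, 185, 289 and 259 in the other conditions. The model SD of Svs4 in C57.CTL.F1 exceeded its count. The 9 liver markers, led by Alb, whose model SD also exceeded the count in both reused conditions, summed to 24300, 22984, 703, 149 and 91.9. The 6 blood and leukocyte markers, led by Cd52, lay between 3492 and 6788 CPM. Members differed in order, such as Ptprc with 306, 490, 249, 116 and 132 counts, and Hbb-bs, highest in FVB.D300.F1. The median log2 ratio of the 5 that passed, FVB/N over C57BL/6J, was -0.77 for vehicle and -1.88 for DEHP. The 7 markers of smooth muscle and connective tissue, led by Col1a1 or Col3a1, lay between 3388 and 6369 CPM. From C57.CTL.F1 to C57.D300.F2 the collagen genes rose (Col1a1 8376 to 13447 counts) and the muscle genes fell (Acta2 7041 to 3258). The list's median log2 ratio there was -0.78. The part of these tissues in the olfactory receptor counts was not tested.

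Markers of the olfactory epithelium were low. The 11 genes of that list summed to 22.3, 26.6, 33.9, 44.5 and 42.1 CPM, with Gnal or Omp the most abundant. Stoml3, Cyp2g1 and Bpifb9a, which are abundant in that epithelium, had 1.94 counts or fewer in every condition. Omp, which encodes the olfactory marker protein of mature sensory neurons, had 33.3 ± 39.5, 24.3 ± 28.8, 50.7 ± 52.4, 109.5 ± 110.4 and 108 ± 104 counts from C57.CTL.F1 to FVB.D300.F1. Its model SD was about as large as the count in every condition, so the higher FVB/N values are uncertain.

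**Figure D5:**
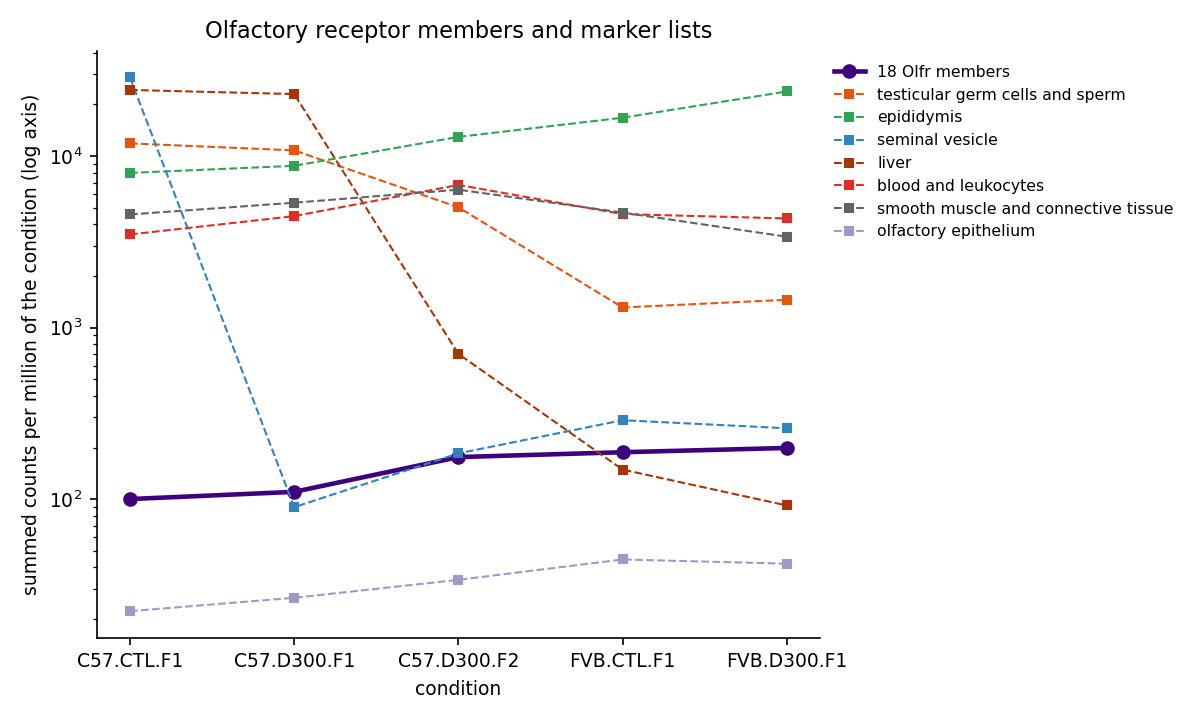
Summed CPM (vertical log axis) of the 18 members and of 7 marker lists in each condition (horizontal axis); lines only join the points of 1 list. The members go from 100 to 199 CPM, germ cell markers from 11858 to 1453 and epididymal markers from 7978 to 23807.

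The listed genes of olfactory signalling were in part detected. The list also held genes of receptor transport, such as Rtp1, and transcription regulators, namely Lhx2, Emx2, Ldb1, Ebf1 and Kdm1a. Of the 23 listed, 22 had a usable estimate and 18 passed the limit of 10 counts in at least 1 condition. Among all genes with a usable estimate, 72.9% passed the same limit. Gnal had 65.4, 84.6, 76.9, 80.1 and 68.6 counts, and Adcy3 40.2, 41.8, 44.8, 59.3 and 49.5, in the order of conditions from C57.CTL.F1 to FVB.D300.F1. Their model SDs were 44.5 to 56.1 for Gnal and 22.3 to 30.8 for Adcy3, so that differences between the conditions, or a level course, are uncertain. Of the channel subunits, Cnga2 had 16.9, 14.4, 20.3, 52.7 and 71.8 counts, Cnga4 3.81, 2.47, 3.04, 9.51 and 11.5 and Cngb1 13.1, 19.1, 18.7, 21.2 and 21.0, so that Cnga2 and Cnga4 were higher in FVB/N. Ano2, also on this list, was lower in FVB/N. Gng13, the G protein gamma subunit of these neurons, had 0.940 counts or fewer, and the receptor-transporting proteins Rtp1 and Rtp2 had at most 4.09 and 3.31. The phosphodiesterase gene Pde1c had 731, 780, 342, 78.3 and 121 counts, with the C57BL/6J conditions above those of FVB/N, as for the sum of the germ cell markers.

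Across the exposure contrasts none of these 18 genes was higher or lower by at least 2 log2 units or by at least 1, in either strain. Their median log2 ratios were 0.07 in C57BL/6J and 0.00 in FVB/N. In the strain contrasts the vehicle groups differed by at least 2 log2 units for 2 genes, Pde1c and Lhx2, both lower in FVB.CTL.F1, where 8.64% of all genes were lower. The DEHP groups differed for Omp (with the large SD given above) and Cnga2, higher in FVB.D300.F1, and for Pde1c, lower there, against 2.6% and 7.57% of all genes. By at least 1 log2 unit, 3 of the 18 were higher and 3 lower for vehicle, against 7.72% and 18.5% of all genes. For DEHP 5 were higher and 3 lower, against 12% and 19.8%.

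The receptors known outside the nose had low counts. Olfr16, the receptor with a known role in sperm, had 0.132, 1.01, 3.20, 0.614 and 1.04 counts from C57.CTL.F1 to FVB.D300.F1. Olfr78, a receptor for short-chain fatty acids in kidney vessels, had at most 5.27 counts and Olfr558 at most 6.97. Olfr920 reached 9.71, Olfr1393 0.282 and Olfr1392 0.427. Only Olfr544 among the 7 reached 10 counts, with 10.4 ± 5.29 for FVB.D300.F1, and its neighbour Olfr545, which shares much of its sequence, had 5.29 there.

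The model's error limits what can be said of single members. The median SD of members with at least 10 counts was a fraction of 0.370 of the count for C57.CTL.F1, 0.336 for C57.D300.F1, 0.375 for C57.D300.F2, 0.361 for FVB.CTL.F1 and 0.436 for FVB.D300.F1. It was 0.289 to 0.291 over genes of all kinds with counts in the members' range, which are on the whole more abundant. For Olfr613 in C57.CTL.F1 the fraction was 0.233.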

How the data were processed

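Sperm RNA of 25 libraries, 5 per condition, was analysed as the authors' pooled values. Per the labels and the study's methods, reads (CASAVA 1.8.2 in the submitters' processing notes) were clipped, mapped to mm10 with TopHat and quantified with Cuffdiff. The deposited signal is an estimated fragment count per gene and condition, scaled between libraries and not divided by length. The authors' model variance gave the SDs. How it derives from the 5 libraries, the Cuffdiff options and the annotation release are not given in the sources used here. In all, 15 columns were used. A further 5, holding the dispersion part of the variance, were not used, and 71 genes with a failed estimate in a condition were left out.

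Log2 ratios were taken with a pseudocount of 1, and genes were called at 2 (also 1) log2 units where the largest count was at least 10. Folds against 3 counts or fewer are lower bounds set against 3. With 1 value per condition no test was made. The rule that a difference exceed 2 model SDs was chosen after seeing the data. Named are the 12 members of highest mean count, the genes at the limit, and the listed genes. Per contrast, some of the members of at least 20 counts with the largest rises and falls were named, not every one of them. Other members were named after their values were seen. The members and lists were chosen with earlier results of these data known. Positions are from GENCODE M21 and windows at gene starts from RefSeq. The limit of 100 bases between a RefSeq start and the 5' end was set after seeing the data. Words of 30 bases were compared in the same orientation. Alternatives were other scalings, pseudocounts, minimum counts and thresholds. The calls were tried on simulated counts with large changes in genes more abundant than most members, with counting noise only. This does not show how the calls perform at the members' low counts. Python 3.11.15, numpy 2.4.6, pandas 2.3.3 and matplotlib 3.10.9 were used. Protein sequences were not analysed here.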

Additional observations from a re-analysis of the deposited data

How the results depend on the processing

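Of 190 values under alternatives, 51 moved past their limit (1.5 times for counts and 0.5 for median log2 ratios) and no median log2 ratio of at least 0.5 changed sign. Medians near 0 did, from 0.12 to -0.07 (C57.D300.F1 against C57.CTL.F1, minimum count of 20) and from -0.02 to 0.01 (FVB.CTL.F1 against C57.D300.F2, median-of-ratios factors). The number of members was 40 at a minimum count of 5, 9 at 20, 6 with the smallest count at least 10, 19 with equal totals and 18 with median-of-ratios factors. Equal totals moved the median log2 ratio of all genes to as much as 0.26 (C57.D300.F2 against C57.CTL.F1, where that of the members became 1.39). The members' median for C57.D300.F1 against that of C57.CTL.F1 ranged from -0.07 to 0.25. It became 0.54 for C57.D300.F2 against C57.CTL.F1 with a pseudocount of 10, and for FVB.CTL.F1 against C57.CTL.F1 it became 0.65 with a pseudocount of 10, 0.69 at a minimum count of 5 and 0.96 with counts of 3 or fewer set to 3. Numbers of members past the threshold were low and moved often. For C57.D300.F1 against C57.CTL.F1, higher members numbered 1 with a pseudocount of 0.1 and 5 at 1 log2 unit. For FVB.D300.F1 against FVB.CTL.F1 they numbered 2 at 1 log2 unit. For C57.D300.F2 against C57.D300.F1 they numbered 4 with a pseudocount of 0.1, 2 at a minimum count of 5, 9 at 1 log2 unit, and 0 with a pseudocount of 10, a minimum count of 20, counts set to 3 or differences over 2 model SDs. Of all genes, 3.11% were higher at 1 log2 unit there. For C57.D300.F2 against C57.CTL.F1, 1 was higher with a pseudocount of 10 and 1 lower at 1 log2 unit, where 9.91% of all genes were lower. For FVB.CTL.F1 against C57.CTL.F1, 8 were higher with a pseudocount of 0.1, 7 at a minimum count of 5, 11 at 1 log2 unit and 1 with a pseudocount of 10, a minimum count of 20, counts set to 3 or over 2 model SDs, and 2 were lower at a minimum count of 5 or at 1 log2 unit and 0 with a pseudocount of 10 or a minimum count of 20. Of all genes, 7.72% were higher and 18.5% lower at 1 log2 unit there. For FVB.D300.F1 against C57.D300.F1, 8 were higher at a minimum count of 5, 9 at 1 log2 unit, 0 with a pseudocount of 10 and 1 at a minimum count of 20, with counts set to 3 or over 2 model SDs, and 2 were lower at a minimum count of 5 and 0 with a pseudocount of 10 or a minimum count of 20. Of all genes, 12% were higher at 1 log2 unit there. For FVB.CTL.F1 against C57.D300.F2, 3 were higher and 2 lower at 1 log2 unit, against 4.21% and 12% of all genes. There 0 members were higher with a pseudocount of 10, a minimum count of 20, counts set to 3 or over 2 model SDs. Setting counts to 3 and requiring 2 model SDs were chosen after seeing the data. Without Olfr613 the members' sums were 445, 491, 801, 910 and 1029 from C57.CTL.F1 to FVB.D300.F1. Over all Olfr genes the sums were 1152, 1242, 1973, 1912 and 2200 in the same order. In CPM they were 137, 160, 289, 258 and 281, with C57.D300.F2 highest. The cause of these shifts was not tested. No paired analysis was possible because the table holds 1 pooled value per condition, and leaving out a library was not possible for the same reason.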

Other observations

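Other chemosensory receptor families were counted by the same limit. At least 10 counts in 1 or more conditions were reached by 4 of 199 numbered Vmn1r genes (2.01%), 6 of 122 Vmn2r genes (4.92%), 0 of 15 Taar genes, 1 of 35 Tas2r genes (2.86%) and 2 of 3 Tas1r genes. The vomeronasal receptor gene Vmn1r58 had 903 ± 219 counts for C57.CTL.F1, 894 ± 222 for C57.D300.F1, 786 ± 195 for C57.D300.F2, 1064 ± 263 for FVB.CTL.F1 and 1120 ± 286 for FVB.D300.F1. It was above every member of the olfactory receptor genes and nearly level over the conditions. Vmn2r98 had 3.01 ± 2.24, 8.04 ± 4.24, 27.7 ± 10, 63.3 ± 18.4 and 151 ± 37.5 counts in the same order, with FVB.D300.F1 highest. Vmn1r12 had 92.3, 160, 385, 58.7 and 89.7 counts and was highest in C57.D300.F2, as was Olfr711. The taste receptor gene Tas1r3 had 24.6, 32.1, 35.2, 52.7 and 72.8 counts, each with a model SD close to the count.

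Of 18 listed Olfr pseudogenes, 2 passed the limit. Olfr856-ps1, an unprocessed pseudogene on the minus strand at chr9:19657057-19658647, had 782 ± 188, 690 ± 168, 716 ± 172, 2322 ± 716 and 2723 ± 843 counts from C57.CTL.F1 to FVB.D300.F1. Its count exceeded that of every intact member in each condition and was higher in FVB/N than in all C57BL/6J conditions, the newly made C57.D300.F2 included (log2 ratio 1.70 for FVB.CTL.F1 against C57.D300.F2). Olfr1372-ps1 had 6.15, 5.87, 4.97, 12.6 and 13.1 counts.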
